A study of Mus musculus with 8 samples.

Results

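The genes described here encode the proton pump of lysosomes and endosomes, the vacuolar ATPase (V-ATPase), and the ion channels and exchangers that work beside it. They are the protein-coding genes whose symbols start with Atp6v or Atp6ap, together with the chloride-proton exchanger genes Clcn3 to Clcn7, Ostm1, the TRPML genes Mcoln1 to Mcoln3, the TPC cation channel genes Tpcn1 and Tpcn2, and Tmem175. This rule found 38 genes among the 54532 genes of the count table, 26 by the Atp6 symbols and 12 channel or exchanger genes. Of the 38 genes, 13 encode isoforms of V1 subunits, 9 encode isoforms of V0 subunits, 4 are accessory or only named alike, and 12 are the channels and their partners.

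Gene expression was measured by RNA sequencing of microglia, the macrophages that live within brain and spinal cord tissue, taken from the spinal cords of 8 female mice, with 1 library per mouse. Of these mice, 4 were wild type (WT 503, 504, 506 and 527, by mouse number) and 4 carried the knock-in that the labels name Cd11b-P2X4mCherryIN (KI 513, 526, 528 and 549). The knock-in label names the myeloid integrin CD11b, the ATP-gated channel P2X4 and the red fluorescent protein mCherry, and the construct itself is not described further there. Strain background, age, treatment and batch are not given in the labels, and no allele is named for the WT mice. Cells were sorted as live, CD11b positive, CD45 low and Ly6C negative after mechanical dissociation and a Percoll gradient.

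The V-ATPase is a rotary pump. Its cytosolic V1 sector hydrolyses ATP on the A and B subunits, the D and F subunits form the turning shaft, and the C, E, G and H subunits hold the stator. The membrane V0 sector carries protons through the a subunit and a ring of c and b subunits, with d and e attached. The acid lumen it makes drives the proteases and lipases with which microglia digest myelin, dead cells and synapses. Chloride-proton exchangers (CLC proteins) carry counter-charge, TRPML and TPC channels release calcium and sodium, and TMEM175 conducts potassium and protons. P2X4 is itself found largely in lysosomes of macrophages and microglia, where an acid lumen keeps its activity low.

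Many lysosomal genes carry an E-box of the CLEAR type, CACGTG with flanking letters, which the transcription factor TFEB is known to bind. RefSeq promoter windows (build GRCm38.p6, from 250 bases before to 50 bases after the start) were given for 30 of the 38 genes. The letters CACGTG stood in the windows of 9 of these 30 genes (30%), against 8.09% of 27025 genes. The longer letters TCACGTGA, which contain the shorter ones, stood in 6 of 30 (20%), against 1.12% of genes. The same letters with a G before and a C after stood in 0 of 30, against 0.370%. All 3 read the same on both strands. The 6 windows with TCACGTGA are shown because they hold the motif in genes of both pump sectors and of the channels. Sequences run 5′ to 3′ in the direction of the gene, and capitals mark each CACGTG, with its flanking letters where these complete TCACGTGA:

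Atp6v0d1, chr8:105566015-105566314, minus strand: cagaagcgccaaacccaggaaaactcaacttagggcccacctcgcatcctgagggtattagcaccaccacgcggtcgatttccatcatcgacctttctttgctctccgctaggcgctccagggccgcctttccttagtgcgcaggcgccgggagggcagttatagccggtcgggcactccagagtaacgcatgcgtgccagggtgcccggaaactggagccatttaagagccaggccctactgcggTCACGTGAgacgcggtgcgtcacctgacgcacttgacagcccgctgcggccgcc
Atp6v0e, chr17:26676146-26676445, plus strand: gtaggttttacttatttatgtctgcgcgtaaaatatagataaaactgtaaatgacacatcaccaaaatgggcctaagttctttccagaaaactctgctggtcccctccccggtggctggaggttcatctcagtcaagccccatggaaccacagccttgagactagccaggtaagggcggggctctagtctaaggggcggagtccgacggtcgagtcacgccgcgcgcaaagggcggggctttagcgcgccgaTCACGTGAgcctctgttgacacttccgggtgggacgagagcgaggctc
Atp6v1a, chr16:44139210-44139509, minus strand: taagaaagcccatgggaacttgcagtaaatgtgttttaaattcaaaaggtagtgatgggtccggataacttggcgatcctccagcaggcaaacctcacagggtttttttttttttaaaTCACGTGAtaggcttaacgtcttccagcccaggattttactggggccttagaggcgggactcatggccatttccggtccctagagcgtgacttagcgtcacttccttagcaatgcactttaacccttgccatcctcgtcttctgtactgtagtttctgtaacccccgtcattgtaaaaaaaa
Clcn6, chr4:148038764-148039063, minus strand: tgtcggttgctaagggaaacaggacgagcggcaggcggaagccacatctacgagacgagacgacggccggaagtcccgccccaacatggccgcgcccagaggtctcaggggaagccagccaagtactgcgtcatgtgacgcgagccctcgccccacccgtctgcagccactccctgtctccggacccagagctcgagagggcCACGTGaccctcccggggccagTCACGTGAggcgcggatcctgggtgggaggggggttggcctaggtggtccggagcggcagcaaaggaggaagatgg
Clcn7, chr17:25133141-25133440, plus strand: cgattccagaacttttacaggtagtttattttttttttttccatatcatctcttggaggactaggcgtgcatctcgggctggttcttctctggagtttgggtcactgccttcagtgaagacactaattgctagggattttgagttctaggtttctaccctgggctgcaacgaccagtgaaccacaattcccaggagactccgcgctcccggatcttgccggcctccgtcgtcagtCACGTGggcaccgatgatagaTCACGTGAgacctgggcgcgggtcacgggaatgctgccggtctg
Mcoln1, chr8:3500269-3500568, plus strand: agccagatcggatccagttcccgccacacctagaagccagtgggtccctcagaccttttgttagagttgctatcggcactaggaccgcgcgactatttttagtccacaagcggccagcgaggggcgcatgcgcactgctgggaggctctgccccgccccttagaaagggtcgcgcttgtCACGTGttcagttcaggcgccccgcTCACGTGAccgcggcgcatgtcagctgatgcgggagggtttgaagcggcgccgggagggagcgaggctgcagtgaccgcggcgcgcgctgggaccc

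The windows belong to V0 subunits d1 and e, the catalytic V1 subunit A, the exchangers ClC-6 and ClC-7, and the calcium channel TRPML1. Clcn6, Clcn7 and Mcoln1 each held a second CACGTG without the longer flanks. The other genes with CACGTG in a window were Atp6v0b, Clcn4 and Mcoln2. A match of letters only describes the window.

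Library totals ranged from 45167483 to 54049801 counted reads, and CPM stands for reads scaled to the TMM-corrected library size. A count of 0 allows up to 3 reads, which was 0.0555 to 0.0664 CPM. The sorted cells were rich in microglial transcripts. The summed CPM of 8 microglial markers (P2ry12, Tmem119, Cx3cr1 and others) was 28059 to 32338 in WT and 26423 to 30080 in KI. Of these markers, 3 had lower means in KI at an unadjusted p under 0.05, beside 4.56% of all genes in that direction. They were Csf1r (log2 fold change -0.35, without overlap), Tmem119 (-0.32) and Cx3cr1 (-0.23). None passed adjustment by the quasi-likelihood test, while DESeq2 called Csf1r with an adjusted p of 0.0493. With each library's trends on GC content and length removed, the log2 fold change of Csf1r was -0.25. Of other cells, erythroid markers had the highest sums, at 159 to 522 CPM in WT and 96.1 to 305 CPM in KI. All 5 had lower means in KI, 3 of them at an unadjusted p under 0.05, beside 4.56% of all genes in that direction. None of the 5 was called by the quasi-likelihood test. Oligodendrocyte markers summed to 163 to 283 in WT and 148 to 272 in KI, and neuronal markers to 3.57 to 7.91 in WT and 0.554 to 15.5 in KI. Monocyte markers summed to 12.98 to 23.8 in WT and 23.5 to 38.1 in KI. Most of this sum was Ms4a4c, at 8.58 to 19.3 CPM in WT and 19.33 to 28.8 CPM in KI. Of the 3 monocyte markers tested, 2 had higher means in KI and 1 (Plac8) a lower mean, and none was called. Neutrophil markers summed to 0.0805 to 5.77 in WT and 0.111 to 17.0 in KI, and S100a8 ran from 0 in several libraries to 3.13 CPM in WT 504 and 9.98 CPM in KI 528. Border-associated macrophage markers summed to 5.19 to 6.76 in WT and 4.84 to 17.0 in KI. All 4 of them that were tested had higher means in KI, and none was called. Astrocyte markers summed to 16.4 to 44.7 in WT and 18.1 to 47.2 in KI. The sums of endothelial markers were 31.1 to 52.5 in WT and 39.3 to 49.6 in KI. Pecam1 alone gave 29.4 to 49.2 CPM of these, and no other endothelial marker exceeded 3.52 CPM in any library. The part of all these cells in the levels given below was not tested. In bulk samples such as these, fewer cells of a type and less RNA per cell cannot be told apart. P2rx4 averaged 792 ± 43.5 CPM in the WT libraries and 858 ± 62.6 CPM in the KI libraries (SD, n = 4), and its log2 fold change was 0.11 (adjusted p of 0.735, edgeR quasi-likelihood test).

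Spinal microglia expressed a complete set of pump subunits, each from 1 dominant gene apart from subunit a. All 8 V1 subunits and all 5 V0 subunits had at least 1 gene with a mean of 10 CPM or more. Of the 38 genes, 24 had means of at least 10 CPM, 3 lay between 1 and 10 CPM (Atp6v1g2, Clcn6 and Tpcn2), and 11 lay under 1 CPM. Levels of different genes were compared only per length, as CPM per kilobase of exon (CPM per kb), averaged over the 8 libraries. On this scale the accessory protein gene Atp6ap1 was highest at 314 ± 20.8 (SD, n = 8), ahead of Atp6v0b at 268 ± 22.7 and Atp6v1g1 at 263 ± 20.2. Atp6v0b and Atp6v1g1 lay within their spread of each other, and on the deposited FPKM scale of the authors their order turned, with Atp6v1g1 at 315 and Atp6v0b at 296.

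Next in the order of per-length level were Atp6ap2 at 152 ± 4.10 CPM per kb, Atp6v1f at 127 ± 9.85 and Atp6v0d1 at 114 ± 4.79. Atp6v1b2 at 86.4 ± 2.80, Atp6v1c1 at 82.6 ± 5.86 and Atp6v0e at 78.6 ± 6.92 followed, neighbours that lay within their spread. The exchanger gene Clcn4 stood at 50.8 ± 2.80, above every other channel gene. The V1 subunits A at 17.4 ± 2.45 and H at 10.4 ± 1.19 had the lowest per-length levels among the leading V1 genes. Exon length here is the sum over all annotated exons of a gene, so a long annotated untranslated region lowers the value. Antisense genes share 11.8% of the exon bases of Atp6v0b (Gm12841) and 11.5% of those of Clcn4 (Gm45631). The counts used no strand, so both levels, and the Clcn4 share given below, are less certain.

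The 9 genes that did not pass the filter on low counts were Atp6v1b1, Atp6v1e2, Atp6v1g3, Atp6v0a4, Atp6v0d2, Atp6ap1l, Atp6v1fnb, Mcoln2 and Mcoln3. Atp6v1b1 and Atp6v0a4 are known from acid-secreting cells of the kidney and inner ear, Atp6v0d2 from osteoclasts, and Atp6v1e2 from testis. None of the 9 had a mean over 8 libraries above 0.192 CPM, and the highest value in any library was 0.643 CPM, for Atp6v0a4 in KI 528. Atp6v1g3 had no read in any of the 4 WT libraries.

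Isoform shares were computed per length within each subunit. Atp6v1b2 made up 99.98% of subunit B, Atp6v1e1 99.9% of E, Atp6v1c1 99.7% of C and Atp6v1g1 99.5% of G, as means of 8 libraries. Atp6v0d1 made up 99.97% of subunit d and Atp6v0e 99.6% of e. Subunit a, which steers the pump to its membrane, was shared. Without Tcirg1, Atp6v0a2 held 68.4 ± 4.81% in WT and 68.2 ± 2.52% in KI (SD over 4 libraries), and Atp6v0a1 held 31.6% in both groups. Tcirg1 encodes subunit a3, known from osteoclasts and from phagocyte lysosomes, and falls outside the symbol rule. With Tcirg1 counted, it held 45.2%, Atp6v0a2 37.5% and Atp6v0a1 17.3% of subunit a over the 8 libraries. The Tcirg1 share ranged from 35.7% to 52.2% between libraries, and the group means were 45.6 ± 3.86% in WT and 44.9 ± 6.85% in KI, so the mix of a isoforms differed by less than its spread.

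Between the genotypes, no gene of the 38 was called. KI was compared with WT by edgeR's quasi-likelihood test over 17291 genes, with Benjamini-Hochberg adjustment and a threshold of 0.05, and 29 of the 38 genes were tested. The count was 0 of 29, beside 0% of all genes, and the smallest adjusted p was 0.554, for Atp6v1d. At an unadjusted p under 0.05, 3 of 29 passed, beside 7.79% of all genes. Of these 3, Atp6v1c1 and Atp6v1d had higher means in KI, beside 3.23% of all genes in that direction, and Atp6v0a2 a lower mean, beside 4.56%. DESeq2 called 0 of 30, beside 1.26% of the genes it tested, and edgeR's likelihood ratio test 0 of 29, beside 0.243%. The groups did not overlap in 2 of 27 genes with means of 1 CPM or more, Atp6v1c1 and Atp6v1e1, both higher in KI, beside 5.39% of all such genes in either direction and 2.63% in that direction. None of the 27 was lower in KI without overlap, beside 2.77%.

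The precision behind these counts was high for the abundant genes. For 21 of 29 genes, beside 38.6% of all genes, the 95% interval allowed a difference of at most 1.5-fold in either direction. For 15 of 29, beside 12.6%, it allowed at most 1.25-fold. Of the 38 genes, 24 were abundant, with at least 10 CPM, and the part of expression level in these shares was not tested. The 8 genes with wider intervals were Atp6v1c2, Atp6v1g2, Atp6v0a1, Atp6v0e2, Clcn5, Clcn6, Tpcn1 and Tpcn2. The log2 fold change was above 0 in 15 of 29 genes, beside 50.1% of all genes.

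**Figure D1:**
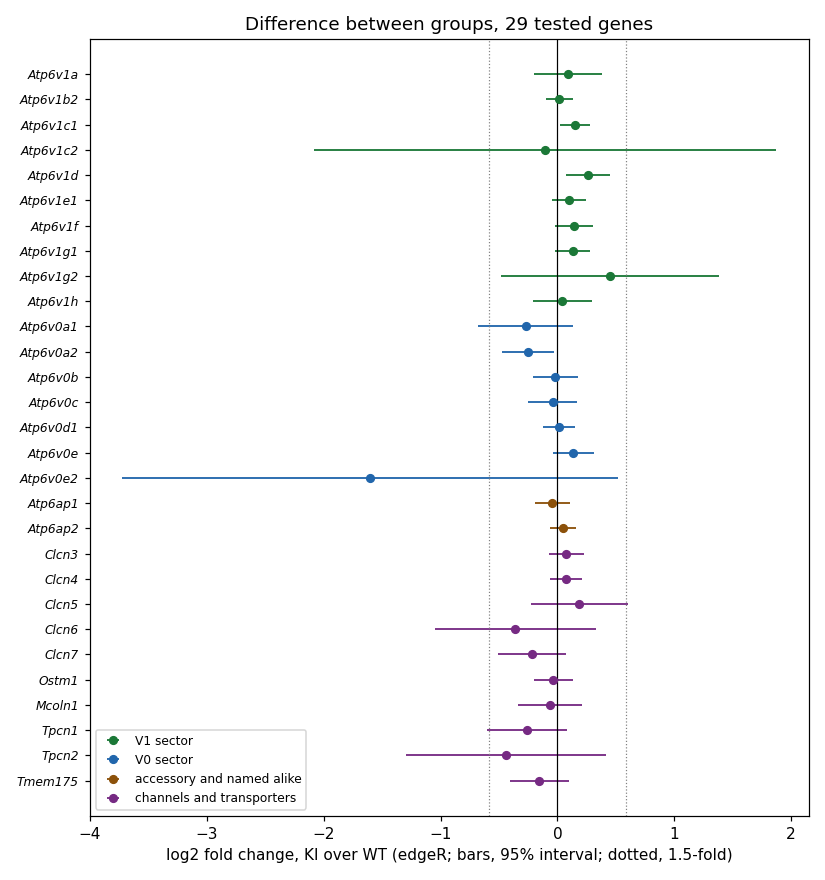
Log2 fold change of KI over WT for the 29 tested genes (points, edgeR estimate; bars, 95% interval; dotted lines, 1.5-fold). The leading V1 genes lie to the right of 0 and most channel genes to the left, with short bars for abundant genes and long bars for Atp6v1c2, Atp6v1g2, Atp6v0e2 and Tpcn2.

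In the V1 sector, the KI mean was above the WT mean for the leading gene of each of the 8 subunits, by small amounts. The log2 fold changes ran from 0.02 (Atp6v1b2) to 0.26 (Atp6v1d) with a median of 0.12, beside a median of 0.00 over all genes tested, and none was called. Counts of direction are descriptions here, since the genes were measured in the same libraries. Atp6v1d (chr12:78840725-78861638, minus strand, mm10) encodes the central shaft that couples ATP hydrolysis to rotation. Its level was 162, 136, 140.1 and 139 CPM in WT 503, 504, 506 and 527, and 152, 184, 184 and 171 CPM in KI 513, 526, 528 and 549. WT 503 lay above KI 513, and the other 3 KI libraries lay above all WT libraries. The group means were 144 ± 11.9 and 173 ± 15.2 CPM (SD, n = 4 each), a log2 fold change of 0.26 (SE 0.0857) with an adjusted p of 0.554 by edgeR. Atp6v1f, the other shaft subunit, stood at 137, 123, 124 and 128 CPM in WT and 141, 142, 153 and 128 CPM in KI. KI 549 was the only KI library inside the WT range, and the log2 fold change was 0.14 (SE 0.0740).

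Atp6v1c1 (chr15:38661933-38692446, plus strand, mm10) encodes the C subunit, which leaves the complex when V1 and V0 come apart. Its level was 453, 441, 410.2 and 449.7 CPM in WT and 492, 513, 487 and 454 CPM in KI. The groups did not overlap, but KI 549 and WT 503 were nearly level. The means were 439 ± 19.6 and 486 ± 24.5 CPM, a log2 fold change of 0.15 (SE 0.0590) with an adjusted p of 0.600 by edgeR. Atp6v1e1 (chr6:120794305-120822793, minus strand, mm10), a peripheral stalk subunit, stood at 125, 126, 126 and 131 CPM in WT and 132, 132, 148 and 134 CPM in KI. These groups did not overlap either, and 3 of the 4 KI libraries lay within a few CPM of WT 527. The log2 fold change was 0.10 (SE 0.0658), with an adjusted p of 0.776 by edgeR.

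Atp6v1g1, the other stalk gene, stood at 303, 285, 277 and 273 CPM in WT and 294, 301, 347 and 304 CPM in KI, a log2 fold change of 0.13 (SE 0.0679). WT 503 lay inside the KI range. A processed pseudogene of Atp6v1g1, Gm13453, which matched it at 99.44% over 357 bases, held reads equal to 4.43% of those on Atp6v1g1, and adding them gave a log2 fold change of 0.14. Atp6v1b2, the ATP-binding B subunit, had the smallest fold change of the leading V1 genes, at 439, 456, 458 and 471 CPM in WT and 450.2, 469, 483 and 443 CPM in KI. Its log2 fold change was 0.02, with a 95% interval from -0.10 to 0.13. The WT range and the KI range nearly coincided.

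Atp6v1a, the catalytic subunit, varied more, at 119, 112, 84.7 and 91.2 CPM in WT and 129.5, 96.3, 102 and 104 CPM in KI. The highest values, in KI 513 and WT 503, came from both groups, and the log2 fold change was 0.09 (SE 0.130). Atp6v1h, which links V1 to V0 and restrains free V1, stood at 85.4, 119, 107 and 89.0 CPM in WT and 101, 103, 94.6 and 113 CPM in KI. WT held both its lowest and its highest value, and the log2 fold change was 0.04 (SE 0.114). Leaving out WT 503 brought the number of leading V1 genes with a fold change above 0 from 8 to 6.

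The summed level of the 13 V1 genes is a plain addition of their CPM. It was 1826, 1799, 1732 and 1775 CPM in WT and 1897, 1944, 2002 and 1857 CPM in KI, with means of 1783 ± 39.96 and 1925 ± 62.2 (SD, n = 4 each). On this scale every KI library lay above every WT library. Summed per length, where short genes weigh more, the means were 626 ± 20.04 and 682 ± 34.5 CPM per kb and the groups overlapped, since KI 549 at 654.0 lay just under WT 503 at 654.6. No test is attached to these sums, because the genes were chosen with earlier results known.

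**Figure D2:**
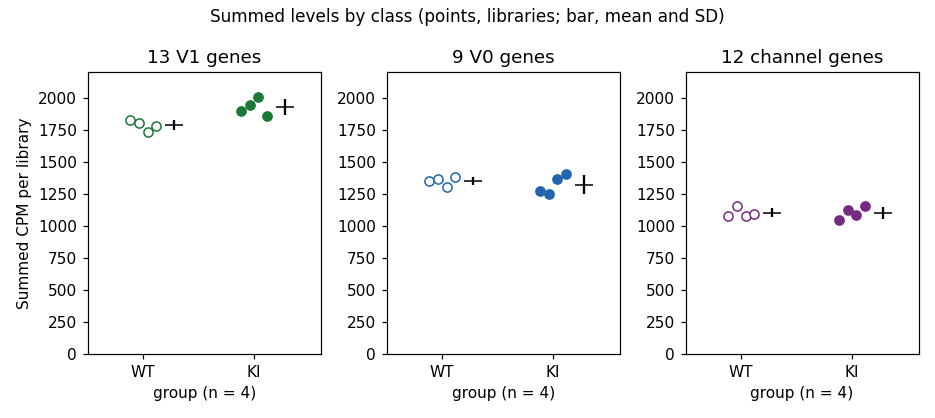
Summed CPM per library of the V1, V0 and channel genes, with open circles for WT, filled circles for KI and a black bar for the group mean and SD (n = 4). The V1 sums of KI (1857 to 2002) lie above those of WT (1732 to 1826), while the V0 and channel sums of the groups overlap.

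The V1 isoforms of low abundance gave little information. Atp6v1g2, known as the neuronal G isoform, averaged 2.50 ± 1.57 CPM in WT and 3.41 ± 0.868 CPM in KI, with a log2 fold change of 0.45 (95% interval from -0.49 to 1.38). WT 506 stood apart at 4.85 CPM. Leaving out WT 506 gave a log2 fold change of 0.99. Its neighbour in the annotation, Nfkbil1 on the other strand, shared 5.74% of its exon bases, and the counts used no strand. The summed neuronal markers ranged from 3.57 to 7.91 CPM in WT and from 0.554 to 15.5 CPM in KI, with Rbfox3 and Stmn2 at 0 in some libraries, and their part in the Atp6v1g2 level was not tested. Atp6v1c2 averaged 0.476 ± 0.397 CPM in WT and 0.443 ± 0.346 CPM in KI.

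In the V0 sector, fold changes were spread around 0, with 2 of 7 tested genes above it and a median of -0.04. Counted by the leading gene of each subunit, as for V1 above, 2 of 5 were above 0 with a median of -0.016. Atp6v0a2 (chr5:124628576-124724455, plus strand, mm10) encodes the a isoform of the Golgi and early endosomes. It stood at 176, 198, 195 and 199 CPM in WT and at 196, 146, 146 and 157 CPM in KI. KI 513 sat inside the WT range, and the other 3 KI libraries lay below all WT libraries. The means were 192 ± 11 and 161 ± 23.9 CPM, a log2 fold change of -0.25 (SE 0.1) with an adjusted p of 0.604 by edgeR. The antisense gene 4930404A12Rik, which shares 9.86% of the Atp6v0a2 exon bases, had 0 reads. The counts used no strand, so this 0 cannot show whether the antisense gene was silent. Reads over the shared bases cannot be assigned to either gene. Atp6v0a1, the isoform best known from synaptic vesicles and lysosomes, averaged 88.1 ± 22.4 CPM in WT and 73.0 ± 11.1 CPM in KI, a log2 fold change of -0.27 (SE 0.183). It was the most variable of the 24 abundant genes in WT, from 60.6 CPM in WT 503 to 107 CPM in WT 506.

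Tcirg1 averaged 158 ± 30.1 CPM in WT and 129 ± 30.2 CPM in KI, with a log2 fold change of -0.30 (SE 0.173) and an edgeR adjusted p of 0.740. All 3 expressed a isoforms thus had lower means in KI, and none was called. Atp6v0d1, which sits between the ring and the V1 shaft, was level at 209.7, 213, 193 and 202 CPM in WT and 194, 212, 215 and 204 CPM in KI. Its log2 fold change was 0.01, with a 95% interval from -0.13 to 0.15. Atp6v0b, part of the proton-carrying ring, stood at 561, 546, 530.1 and 578 CPM in WT and 468, 518, 583 and 621 CPM in KI. The KI libraries held its lowest and highest values, and the SD was 20.5 CPM in WT and 68.1 CPM in KI around means of 554 and 547 CPM.

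Atp6v0e, a small membrane subunit, stood at 274, 259.8, 219 and 224 CPM in WT and 264, 259.9, 279.7 and 270.3 CPM in KI, a log2 fold change of 0.14 (SE 0.0800). The WT libraries split into a higher and a lower pair, and KI lay near the higher pair. Its isoform Atp6v0e2 averaged 1.14 ± 0.982 CPM in WT and 0.373 ± 0.144 CPM in KI. The log2 fold change of -1.60 had a 95% interval from -3.72 to 0.52, and WT values ran from 0.0201 CPM, below the 3-read limit, to 2.30 CPM.

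Atp6v0c (chr17:24163866-24169702, minus strand, mm10), the main ring subunit, has an uncertain count. It was read at 64.0, 64.2, 61.0 and 67.0 CPM in WT and 64.0, 53.0, 63.2 and 68.9 CPM in KI, with KI 526 lowest. The processed pseudogene Atp6v0c-ps2 matched it over 465 bases at 99.785% and held 26000 reads over the 8 libraries, against 25151 on Atp6v0c itself. Reads of the parent and the copy cannot be told apart over those bases. The sum of both averaged 131 ± 4.4 CPM in WT and 126 ± 11.7 CPM in KI, with a log2 fold change of -0.05 and an edgeR adjusted p of 0.934. The per-length level of Atp6v0c, 18.7 ± 1.40 CPM per kb, is uncertain for the same reason. A gene without a symbol on the same strand also shares 27.4% of the Atp6v0c exon bases.

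The accessory subunits were abundant and level. Atp6ap1 (Ac45), which helps to assemble V0 in the endoplasmic reticulum, stood at 891, 1061, 932 and 972 CPM in WT and 891, 879.8, 994 and 979 CPM in KI. WT 504 was highest, and the log2 fold change was -0.04 with a 95% interval from -0.20 to 0.11. Atp6ap2, the prorenin receptor, whose cleaved stub is part of the pump, stood at 399, 402, 380.5 and 383 CPM in WT and 400.2, 407, 400.1 and 411 CPM in KI. Its values in KI had the smallest spread of the 24 abundant genes, at 1.29% of the mean, and its log2 fold change was 0.05 with a 95% interval from -0.06 to 0.16.

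**Figure D3:**
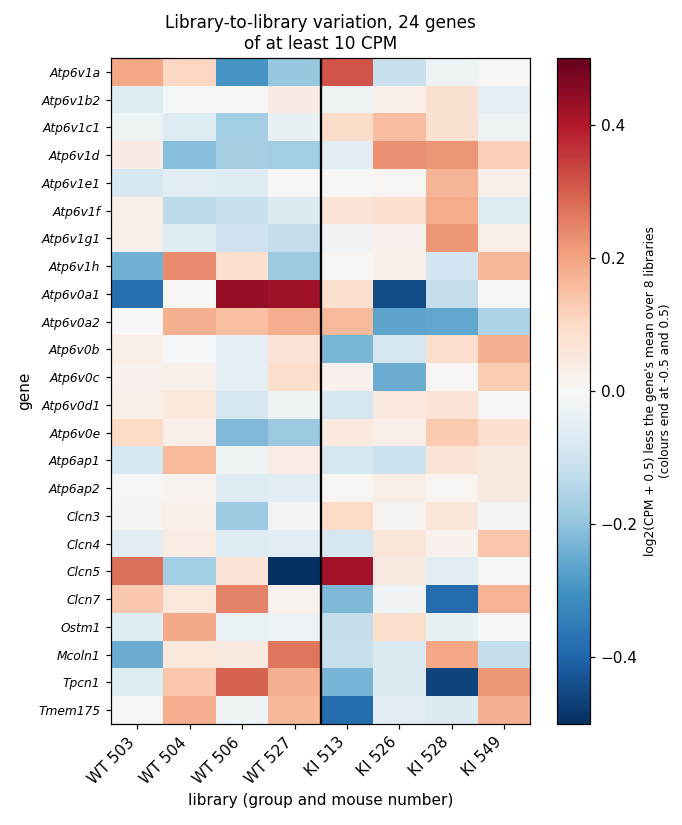
Log2(CPM + 0.5) of the 24 genes with means of 10 CPM or more, less each gene's mean over the 8 libraries (colour, ending at -0.5 and 0.5; columns, libraries; rows, genes; black line between WT and KI). Atp6v0a1, Clcn5 and Tpcn1 show the strongest colours, and libraries of both genotypes carry both colours.

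Among the chloride-proton exchangers, Clcn4 led with 70.3% of the per-length level of the CLC genes over the 8 libraries. Clcn3 held 13%, Clcn7 10.04%, Clcn5 4.52% and Clcn6 2.13%. Clcn4 (chr7:7282309-7300851, minus strand, mm10) encodes ClC-4, which pairs with ClC-3 in endosomes. Its level was 418, 447, 416 and 418 CPM in WT and 410.5, 454, 442 and 479 CPM in KI. WT 504 stood apart from 3 WT libraries that were almost equal, and the groups overlapped. The log2 fold change was 0.07 (SE 0.0609). Clcn3 averaged 156 ± 10.2 CPM in WT and 164 ± 5.81 CPM in KI (log2 fold change 0.08), and Clcn5, known for endosomes of the kidney, 34.9 ± 8.69 and 39.8 ± 6.36 CPM (0.19).

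Clcn7 and Ostm1 encode the lysosomal exchanger ClC-7 and its obligate partner, whose loss causes osteopetrosis and lysosomal storage in mice. Clcn7 averaged 41.3 ± 2.95 CPM in WT and 35.5 ± 6.07 CPM in KI, a log2 fold change of -0.22 (SE 0.132) with an adjusted p of 0.753 by edgeR. KI 549, at 42.9 CPM, lay inside the WT range of 38.5 to 45.2 CPM, while the other 3 KI libraries, from 29 to 37.5 CPM, lay below it. Ostm1 stood at 196, 234, 200.2 and 201 CPM in WT and 188, 217, 199.7 and 205 CPM in KI, with WT 504 apart at the top. Per length, Ostm1 at 28.5 ± 1.95 CPM per kb exceeded Clcn7 at 7.25 ± 1.02. Clcn6, the late endosomal exchanger, averaged 10.2 ± 3.04 CPM in WT and 7.95 ± 2.87 CPM in KI (log2 fold change -0.36, SE 0.310).

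Of the calcium and cation channels, Mcoln1 carried 99.5% of the per-length level of the TRPML genes. It encodes TRPML1, a calcium channel opened by a lysosomal phosphoinositide. It stood at 52.7, 65.1, 64.7 and 75.8 CPM in WT and 58.0, 59.6, 72.0 and 57.7 CPM in KI, a log2 fold change of -0.06 (SE 0.123). The lowest and the highest value were both WT, and KI 528 stood above the other KI libraries. Mcoln2, known to be induced in activated macrophages, and Mcoln3 were at most 0.151 CPM in any library.

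The TPC channels are opened by the same phosphoinositide and by the second messenger NAADP. Tpcn1 stood at 31.5, 36.1, 40.4 and 37.2 CPM in WT and 27.9, 31.3, 23.7 and 38.2 CPM in KI. KI 549 lay inside the WT range and the other 3 KI libraries below it, and the log2 fold change was -0.26 (SE 0.154, adjusted p of 0.741 by edgeR). Tpcn2 averaged 8.98 ± 1.95 CPM in WT and 6.62 ± 4.24 CPM in KI, a log2 fold change of -0.44 (SE 0.385). KI 513 had the highest value of all 8 libraries at 12.8 CPM, and the other 3 KI libraries, from 3.59 to 5.78 CPM, lay below all WT libraries. Without KI 513 the log2 fold change was -0.98. Tpcn1 made up 73.3% of the pair's per-length level, from 57.5% to 84.4% between libraries.

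Tmem175, the lysosomal potassium and proton channel linked to Parkinson's disease in humans, stood at 110.3, 124, 108 and 123 CPM in WT and 83.9, 106, 105 and 124 CPM in KI. Of the KI libraries, 3 lay below the WT range and KI 549 at its top, and the log2 fold change was -0.16 (SE 0.114). The neighbouring gene Dgkq, on the other strand, shares 35.3% of the Tmem175 exon bases. Without strand, reads over these bases cannot be assigned to either gene, so the level of Tmem175 is uncertain. The count of Dgkq, 1.93% as many reads, carries the same limit. Over all 10 tested channel genes, 3 fold changes (Clcn3, Clcn4 and Clcn5) were above 0 and 7 below, with a median of -0.11. The summed CPM of the 12 channel genes was 1101 ± 37.2 in WT and 1100.1 ± 46.8 in KI, and that of the 9 V0 genes was 1348 ± 31.3 and 1320 ± 72.8. Both sums overlapped between the groups.

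Base composition moved with these differences. Across the 24 genes with at least 10 CPM, GC content and log2 fold change had a Pearson r of -0.54, beside -0.30 across the 8527 genes of that level, both across genes that share the same 8 libraries. The slope of log2 level on GC content was above 0 in 3 of 4 WT libraries and in 1 of 4 KI libraries. With each library's trends on GC content and length removed, the r across the 24 genes was -0.32, beside -0.05 across all. In that fit the leading V1 genes were above 0 in 8 of 8 cases with a median of 0.11, the leading V0 genes in 4 of 5 with a median of 0.049 (from -0.016) and the channel genes in 4 of 10 with a median of -0.06 (from -0.11). The log2 fold change of Tpcn1 was then -0.13, that of Clcn7 -0.12, that of Atp6v1g1 0.07 and that of Clcn4 0.14. Of single genes, Atp6v0b (0.049), Atp6v0c (0.065), Atp6ap2 (-0.020) and Mcoln1 (0.039) then took the opposite sign, and none was called.

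**Figure D4:**
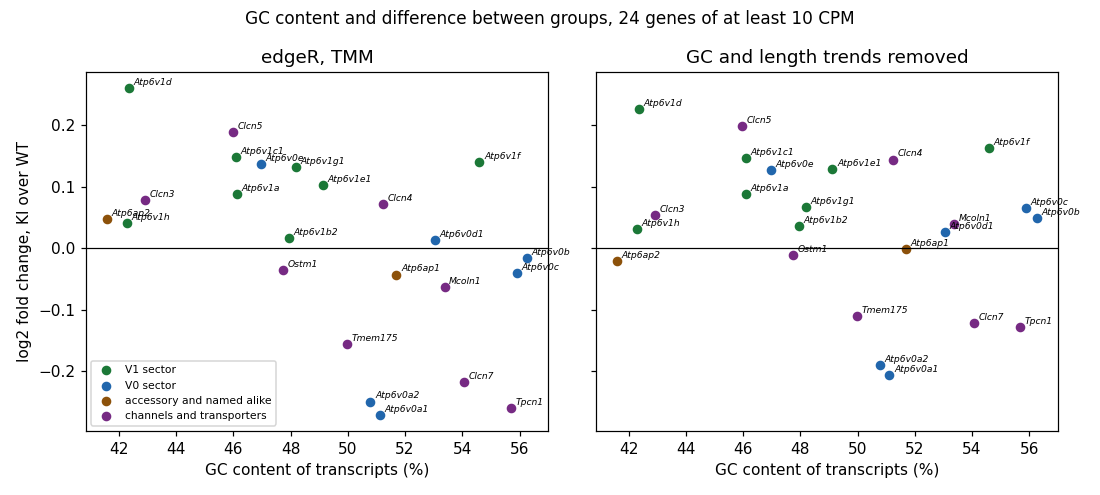
Log2 fold change of KI over WT against the GC content of the transcripts for the 24 genes with at least 10 CPM, from the edgeR fit (left) and with each library's GC and length trends removed (right). The downward tilt (r = -0.54) is smaller on the right (r = -0.32).

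The 6 genes with TCACGTGA in their windows had no common direction. Their log2 fold changes were 0.01 (Atp6v0d1), 0.14 (Atp6v0e), 0.09 (Atp6v1a), -0.36 (Clcn6), -0.22 (Clcn7) and -0.06 (Mcoln1). Tfeb itself was read at 8.79 ± 1.24 CPM in WT and 6.29 ± 1.97 CPM in KI, a log2 fold change of -0.48 with an adjusted p of 0.692 by edgeR.

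Other genes of the pathway were taken from lists and gave 0 calls by the quasi-likelihood test, like the pump genes. Among 13 tested partners and regulators of the V-ATPase, 9 fold changes were above 0 and 4 below, with a median of 0.03. Tmem199, an assembly factor of the pump, was the only one with an unadjusted p under 0.05, beside 7.79% of all genes in either direction. It had a higher mean in KI, beside 3.23% of all genes in that direction. Its level was 86.5 ± 8.89 CPM in WT and 101 ± 8.36 CPM in KI (log2 fold change 0.23). Oxr1, whose TLDc domain relatives act on the pump, had a log2 fold change of 0.15 and Ncoa7 one of 0.46.

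Among 22 other ion and solute transporters of endosomes and lysosomes, 8 were above 0 and 14 below, with a median of -0.03. At an unadjusted p under 0.05, 3 had lower means in KI, beside 4.56% of all genes. Spns1, which exports lysophospholipids from lysosomes, averaged 27.6 ± 2.61 CPM in WT and 18.4 ± 3.32 CPM in KI without overlap (log2 fold change -0.58). Its adjusted p was 0.507 by edgeR's quasi-likelihood test and 0.0245 by DESeq2. With GC and length trends removed, the log2 fold change of Spns1 was -0.42. Slc11a1 (NRAMP1), the metal transporter of phagocyte lysosomes, had a log2 fold change of -0.27 and Tmem63a, a mechanosensitive channel, one of -0.42.

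Among 20 genes of the TFEB family and of lysosomal mTORC1 control, 8 were above 0 and 12 below. Flcn, the folliculin gene that acts on TFEB through Rag GTPases, averaged 126 ± 23.4 CPM in WT and 94.8 ± 10.1 CPM in KI without overlap (log2 fold change -0.41, adjusted p of 0.548 by edgeR). Lamtor5, part of the Ragulator scaffold that docks to the pump, had a log2 fold change of 0.24 and Lamtor2 one of 0.19.

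Lysosomal storage and membrane genes, 22 in number, had 11 fold changes on either side of 0. At an unadjusted p under 0.05, 1 had a higher mean in KI, beside 3.23% of all genes, and 6 had lower means, beside 4.56%, and 0 passed the adjusted threshold. Lamp1, an abundant lysosomal membrane glycoprotein, averaged 534 ± 61.7 CPM in WT and 332 ± 60.1 CPM in KI without overlap, a log2 fold change of -0.69. Its adjusted p was 0.414 by edgeR's quasi-likelihood test and 0.0018 by DESeq2. With GC and length trends removed, the log2 fold change of Lamp1 was -0.67. The endosomal cholesterol exporter gene Npc1 had a log2 fold change of -0.31, the hexosaminidase gene Hexa one of -0.17, and the macrophage sialomucin gene Cd68 one of 0.15.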

How the data were processed

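The 38 genes and all gene lists were chosen with earlier results of these data known. Libraries were grouped by the genotype in the labels (4 WT, 4 KI). Per the labels' protocols, RNA came from an RNeasy Plus Mini kit and libraries from a NEBNext low-input kit.

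Per the file headers, featureCounts counted reads over exons by gene on mm10, with no strand option and both mates of a pair counted, so the deposited counts are read counts and not fragments. Between 68.9% and 70.8% of counts from 1 to 9 were even. The submitters' processing notes name edgeR, limma, featureCounts 2.0.3, SAMtools 1.9, R 3.6.0 and STAR 2.7.5c, with no order or role. No annotation version was stated. In the GENCODE annotation of the same build, 98.33% of matched genes and 36 of the 38 genes had the same start and end. The deposited FPKM values, with no tool stated for them, equalled library-scaled counts per kilobase of exon length less 190 bases within 0.995 to 1.00 over genes of at least 1000 bases. The count table held 8 further columns that matched no label, and these were not used. A deposited table of normalized values was not used.

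Counts were analysed with edgeR 4.0.16 (R 4.3.3): TMM scaling, filterByExpr (minimum count 10, minimum total 15), and a robust quasi-likelihood test with group as the only term, adjusted over 17291 genes. Errors are SDs over libraries, and intervals are 95% intervals of the fitted fold change. Total counts were 45167483 to 54049801 reads. The floor of 3 reads takes reads as independent, although both mates were counted. It covers counting error only, since no molecular identifiers mark single molecules. The pipeline was tested on simulated counts. No pair of libraries agreed within sampling noise (chi-square per degree of freedom 29.0 to 69.3). The labels give 1 mouse per library.

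Alternatives were DESeq2 1.42.0, edgeR's likelihood ratio test, RLE size factors, no low-count filter, limma 3.58.1 on log2(FPKM + 1), on log2(FPKM + 0.1) and without an FPKM filter, removal of GC and length trends (loess, span 0.3), and leaving out each library. Adding reads of near-identical copies was chosen after seeing the data. Copies were found with BLAST 2.17.0 (at least 95% identity over 200 bases). Values in every library are given for genes with an unadjusted p under 0.05, without overlap between groups, or highest in their subunit or family. Of each list, up to 4 genes with the smallest p are named.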

Additional observations from a re-analysis of the deposited data

Results flagged for a closer look

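In 6 of 58 groups checked (29 tested genes in each genotype), 1 library stood far from the other 3 of its group. The criterion was a gap of more than 0.83 of the group's range, which chance exceeds in about 1 in 20 groups. The genes were Atp6v1d in WT 503 (162 CPM, the highest WT value), Clcn4 in WT 504 (447 CPM), Ostm1 in WT 504 (234 CPM), Atp6v1g2 in WT 506 (4.85 CPM), Atp6v1e1 in KI 528 (148 CPM) and Mcoln1 in KI 528 (72.0 CPM). Each of the 6 was the highest value of its group. WT 504 and KI 528 each held 2 of them. Without WT 503, the log2 fold change of Atp6v1d was 0.32, and without WT 506 that of Atp6v1g2 was 0.99, against 0.26 and 0.45 with all libraries.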

How the results depend on the processing

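Over all genes, DESeq2 called 248 genes, edgeR's likelihood ratio test 42 and limma on log2(FPKM + 1) 1, against 0 with the quasi-likelihood test, where 1347 genes had an unadjusted p under 0.05. Of the other pathway genes, leaving out cell markers, DESeq2 called 2 (Lamp1 and Spns1) and the likelihood ratio test 1 (Lamp1). None of the 38 genes was called under any of these alternatives or without any 1 library. Of 261 fold changes of single genes under 9 alternatives, 257 kept their sign and 4 reversed, all with GC and length trends removed: Atp6v0b (0.049), Atp6v0c (0.065), Atp6ap2 (-0.020) and Mcoln1 (0.039). The smallest adjusted p of the 38 genes was 0.179 over these 9 and 0.407 over the 8 fits without 1 library. On the authors' deposited FPKM scale the same number of genes, 27, reached 1 per length and the same isoforms led. FPKM was 1.01 to 1.21 times the CPM per kb of these genes, and 6 of 38 levels moved by more than 1 SD, among them Atp6v1g1 (315) and Atp6v1f (154). The log2 fold change of Atp6v0e2, -1.60 by edgeR, was -0.33 on the log2(FPKM + 1) scale, which understates changes of low genes. Without 1 library each, 10 of 29 log2 fold changes changed sign: Atp6ap1 (-0.080 to 0.0063), Atp6v0b (-0.082 to 0.049), Atp6v0c (-0.093 to 0.025), Atp6v0d1 (-0.012 to 0.039), Atp6v1a (-0.014 to 0.17), Atp6v1b2 (-0.0051 to 0.036), Atp6v1c2 (-0.78 to 0.53), Atp6v1h (-0.028 to 0.14), Mcoln1 (-0.15 to 0.023) and Ostm1 (-0.076 to 0.025). Another 14 kept their sign but moved by over 1.5 times: Atp6v0a1 (-0.41 to -0.17), Atp6v0e (0.09 to 0.20), Atp6v0e2 (-2.01 to -1.002), Atp6v1e1 (0.06 to 0.12), Atp6v1g1 (0.08 to 0.16), Atp6v1g2 (0.27 to 0.99), Clcn3 (0.03 to 0.10), Clcn4 (0.04 to 0.11), Clcn5 (0.05 to 0.33), Clcn6 (-0.57 to -0.15), Clcn7 (-0.32 to -0.13), Tmem175 (-0.25 to -0.07), Tpcn1 (-0.39 to -0.16) and Tpcn2 (-0.98 to -0.24). With GC and length trends removed, 8 kept their sign and moved by over 1.5 times. The number of leading V1 genes above 0 ranged from 6 (without WT 503) to 8. No paired analysis was possible because the mouse numbers are not shared between the groups.

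Depth limits the genes under 1 CPM, where a fold change rests on few reads. The 95% intervals of 8 of 29 genes, Atp6v0a1 among them, reached beyond 1.5-fold, and an adjusted p above the threshold does not show that levels were equal. The labels give no batch, so batch and genotype cannot be told apart.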
